A study of Mus musculus with 12 samples.

Results

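The genes examined here encode the NF-kB transcription factor and the IkB kinases with their scaffold and relatives. They are the 5 subunits Rel, Rela, Relb, Nfkb1 and Nfkb2 and 5 genes called kinase genes here, Chuk, Ikbkb, Ikbkg (the scaffold), Ikbke and Tbk1. They are the 10 rows of the gene count table that carry these symbols, out of 24421 symbols, and all 10 passed the filter on low counts among 11468 symbols that did. RNA came from macrophages grown out of C57BL/6 bone marrow (BMDMs), matured for 5 days in the macrophage growth factor M-CSF. In 4 groups, cells received the solvent DMSO or the BET bromodomain inhibitor I-BET151 (iBET, 5 µM), and either free ovalbumin (Ova) or an immune complex of ovalbumin and IgG (IC), for 4 h: DMSO Ova, DMSO IC, iBET Ova and iBET IC. Every group holds 1 library from each of mice A, B and C, so that n is 3. The labels state a DMSO concentration for the solvent arms only, and describe drug and stimulus as given together, whereas the study's methods add the drug earlier, which leaves the order unsettled.

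NF-kB is a dimer of 2 subunits drawn from this family. In resting cells it is held in the cytoplasm by IkB proteins. In the canonical route, the IKK complex of the kinases IKK-alpha (Chuk) and IKK-beta (Ikbkb) and the scaffold NEMO (Ikbkg) marks IkB for destruction and frees dimers such as p65 (Rela) with p50 (Nfkb1). In the non-canonical route, IKK-alpha triggers the processing of p100 (Nfkb2) to p52, which pairs with RelB. The related kinases IKK-epsilon (Ikbke) and TBK1 act mainly on interferon regulatory factors downstream of nucleic acid sensors and Toll-like receptors. Several of these genes are themselves targets of NF-kB, and in macrophages cross-linked Fc gamma receptors are a known trigger of the route.

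Because such feedback is known to run through kB sites in promoters, the windows of 250 bases before annotated start sites (RefSeq, GRCm38.p6) were searched on both strands for the 10-base kB consensus and for the 9-letter motif GGAANTTCC, which can overlap it. Of the 10 genes, 7 had a window, with 12 start sites; Relb, Nfkb1 and Ikbkb had none in the table. The consensus was present before 4 of the 12 start sites, those of Rel and the 3 of Nfkb2, against 7.25% of 32851 promoter windows. GGAANTTCC was found in 0 of the 12, against 0.813% of all windows. By gene, Rel and Nfkb2 alone among the 7 held a match. Start sites of the same gene are not independent. The windows of Nfkb2 start sites 2 and 3 overlap, at 46305445 to 46305694 and 46305680 to 46305929. These shares therefore cannot show an enrichment, which was not tested. The stretches that follow hold the match of Rel and a match at the first and the third start sites of Nfkb2. Transcripts of both genes rose with iBET in both stimulations (values below), as did those of Chuk, which had no match. A link between matches and changes was not tested. Capitals mark the match, which in the first and second stretch is a run of overlapping matches on both strands.
Rel, chr11:23771020-23771119, minus strand: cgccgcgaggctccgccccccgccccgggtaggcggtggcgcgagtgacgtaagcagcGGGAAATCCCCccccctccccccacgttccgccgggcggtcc
Nfkb2 start 1, chr19:46304692-46304721, plus strand: cgtcacGGGAATTCCCCccctcggggggcc
Nfkb2 start 3, chr19:46305694-46305723, plus strand: ctggtattttcGGGACTTTCCtaagcagca
The Rel match began 92 bases before its start site, and those of Nfkb2 began 39 bases before the first and 225 bases before the third. A match is a run of letters, and binding was not measured.

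Total counts ran from 7.55 M to 17.4 M per library. The ribosomal precursor transcript Rn45s took 1.41% to 7.83% of the counts in 11 libraries and 77.4% in the mouse A DMSO Ova library, which left 1.77 M counts elsewhere. The 10 genes had 33 to 256 counts each in that library and 164 to 4751 in the others, so the DMSO Ova values of mouse A are the least precise by count. The quality weights of limma voom were lowest for the mouse A DMSO IC library (0.267), followed by the mouse A DMSO Ova library (0.49). The summed level of 7 macrophage markers lay between 5969 and 7948 CPM (counts scaled to a common library size) in the 12 libraries, that of 5 measured neutrophil markers between 8.22 and 49.0 CPM, and those of dendritic cell, T cell, B cell and fibroblast markers each at 4.54 CPM or below. With iBET, 1 of the macrophage markers was called higher in Ova (Mertk) and 2 in IC (Mertk and Lyz2), and none lower. With mouse as a block, 1 was called higher and 1 lower in Ova, and 3 higher and 1 lower in IC. The dendritic cell marker Zbtb46, the 1 of 5 that was tested, was called higher in Ova, from 0.197 to 0.889 CPM, and their part in the results was not tested. In such bulk samples, fewer cells of a type and less RNA per cell cannot be told apart.

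All 10 genes were expressed in every library. Per length of transcript (RPKM, CPM divided by exon length in kilobases), Tbk1 and Nfkb2 held the highest levels in each group, and Rel, which encodes c-Rel, the lowest. This order rests on exons of RefSeq transcripts. Over all annotated transcripts the exon length of Ikbkb is 19078 bases rather than 4533, while that of Rel is 7466 either way. The transcripts in use were not determined, so levels of different genes are uncertain. Tbk1 lay between 32.9 ± 4.37 RPKM in DMSO IC and 40.4 ± 3.67 RPKM in iBET Ova (mean ± SD, n = 3). Nfkb2 ranged from 33.2 ± 5.82 RPKM in DMSO Ova to 79.8 ± 4.90 RPKM in iBET IC, and Rel from 3.61 ± 0.474 to 6.31 ± 0.471 RPKM in the same groups. Levels of different genes are compared on this scale only, and changes below are in CPM normalized by TMM (trimmed mean of M-values), tested in edgeR's quasi-likelihood model with Benjamini-Hochberg adjustment over 11468 genes. Genes called had an adjusted p under 0.05.

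**Figure D1:**
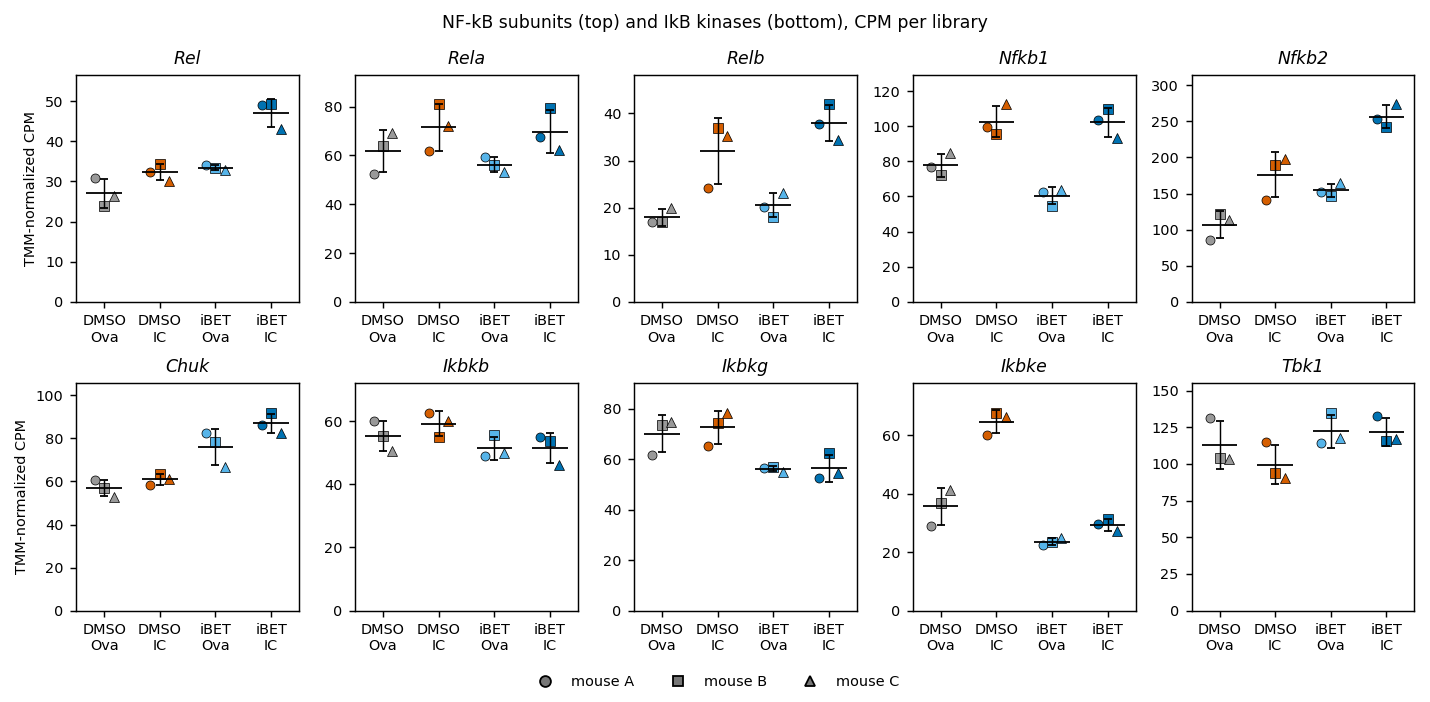
TMM-normalized CPM of the 10 genes in the 12 libraries, with 1 panel per gene and a linear axis from 0. Symbols mark mice, horizontal lines the group means and error bars the SD over 3 libraries. Ikbke stands highest in DMSO IC (60.0 to 67.6 CPM), whereas Rel, Relb, Nfkb2 and Chuk have their highest group mean in iBET IC.

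IC was first set against Ova in DMSO, to ask which of these transcripts respond to the immune complex without the inhibitor. Transcripts of 3 of the 10 genes rose and none was called lower: Ikbke, Relb and Nfkb2, by 1.77-, 1.77- and 1.64-fold. Over all genes 1.22% were called, 0.732% higher and 0.488% lower. The median log2 fold change was 0.40 for the 5 subunits and 0.11 for the 5 kinase genes, against -0.01 for all genes.

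Ikbke, on chromosome 1 (131254343 to 131279606, minus strand, GRCm38), encodes the inducible kinase IKK-epsilon. In mice A, B and C it measured 28.8, 36.8 and 41.4 CPM in DMSO Ova and 60.0, 67.6 and 66.1 CPM in DMSO IC. The groups did not overlap, and the log2 fold change was 0.83 (SE 0.12, FDR-adjusted p = 0.00583, higher in 3 of 3 mice). The study singled this gene out on the same libraries, so its direction is not independent evidence. The call held in the 12 fits that left out 1 library.

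Relb (chromosome 7, 19606217 to 19629438, minus strand), the partner of p52 in the non-canonical route, measured 16.9, 16.9 and 20.0 CPM in DMSO Ova and 24.1, 37.0 and 35.3 CPM in DMSO IC. Nfkb2 (chromosome 19, 46304320 to 46312385, plus strand), which encodes p100 and p52, measured 85.8, 122 and 113 CPM in DMSO Ova and 141, 190.1 and 198 CPM in DMSO IC. For both genes the IC library of mouse A was the lowest of its group and still above every Ova library. The log2 fold changes were 0.83 for Relb (SE 0.17, FDR-adjusted p = 0.0382) and 0.71 for Nfkb2 (SE 0.15, FDR-adjusted p = 0.0382), each in 3 of 3 mice.

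The calls of Relb and Nfkb2 sat near the threshold. Of the 12 fits without 1 library, the fit without the mouse A DMSO IC library kept them, and the other 11 did not, with adjusted p of up to 0.187 for Relb (without the mouse B DMSO Ova library) and 0.148 for Nfkb2 (without the mouse B DMSO IC library). The calls of Ikbke, Relb and Nfkb2 were kept when mouse A was omitted, but not when mouse B (adjusted p = 0.589, 0.858 and 0.68) or mouse C (0.124, 0.32 and 0.392) was. They were also lost in a fit of the 6 DMSO libraries alone (0.137, 0.289 and 0.306).

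Nfkb1 (chromosome 3, 135584655 to 135691547, minus strand), which encodes p105 and p50, measured 76.5, 72.1 and 85.0 CPM in DMSO Ova and 99.4, 95.7 and 113 CPM in DMSO IC. The groups were separate, yet the log2 fold change of 0.40 (SE 0.11) had an adjusted p of 0.118. DESeq2 with a block by mouse gave 0.045. Values of the other 6 genes lay between -0.17 for Tbk1 (SE 0.13, FDR-adjusted p = 0.722) and 0.28 for Rel (SE 0.11, FDR-adjusted p = 0.334), and their groups overlapped.

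Under iBET the same comparison asked whether these responses occur with BET proteins inhibited. It called 2 of the 10 genes, Nfkb1 and Relb, both higher with IC, against 0.349% of all genes (0.314% higher and 0.0349% lower). The median log2 fold change was 0.73 for the subunits and 0.01 for the kinase genes, against -0.01 for all genes.

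Nfkb1 measured 62.7, 54.8 and 63.5 CPM in iBET Ova and 103, 109.7 and 93.4 CPM in iBET IC. All IC values lay above all Ova values, and the log2 fold change was 0.76 (SE 0.11, FDR-adjusted p = 0.00771, 3 of 3 mice). The call was lost without the mouse B iBET Ova library (adjusted p = 0.0754), without the mouse B iBET IC library (0.0606), without mouse B (0.946) and without mouse C (0.0835).

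Relb went from 20.2, 18.1 and 23.1 to 37.8, 42.0 and 34.3 CPM, with no overlap (log2 fold change 0.89, SE 0.17, FDR-adjusted p = 0.0448, 3 of 3 mice). This call held in 2 of the 12 fits without 1 library, those without the mouse A DMSO Ova or the mouse A DMSO IC library, and rose to an adjusted p of 0.311 without the mouse B iBET Ova library. Omission of mouse B (1.00) or mouse C (0.264) ended it.

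Nfkb2 went from 153, 146 and 164 to 254, 243 and 274 CPM. Its log2 fold change of 0.73 (SE 0.15) was the same to within 0.01 in the 3 mice (0.73, 0.73 and 0.74), but the adjusted p was 0.068. With mouse as a block it was 0.00946, and with DESeq2 0.0017. Without a block it was 0.0282 on omission of the mouse A DMSO Ova library, 0.0158 on omission of the mouse A DMSO IC library and 0.00532 on omission of mouse A. Rel measured 34.2, 33.3 and 32.8 CPM in iBET Ova and 49.0, 49.2 and 43.0 CPM in iBET IC (0.49, SE 0.11, FDR-adjusted p = 0.115), again without overlap. It was called by DESeq2 without (0.00942) and with a block by mouse (0.0103), by limma voom (0.0076) and in a fit of the iBET libraries alone (0.0354).

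Ikbke in iBET went from 22.3, 23.4 and 24.7 to 29.6, 31.2 and 27.2 CPM. These groups too were separate. The iBET Ova values lay under the DMSO Ova range of 28.8 to 41.4 CPM, and those of iBET IC around its lower end. The log2 fold change was 0.32 (SE 0.12, FDR-adjusted p = 0.549, 3 of 3 mice).

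**Figure D2:**
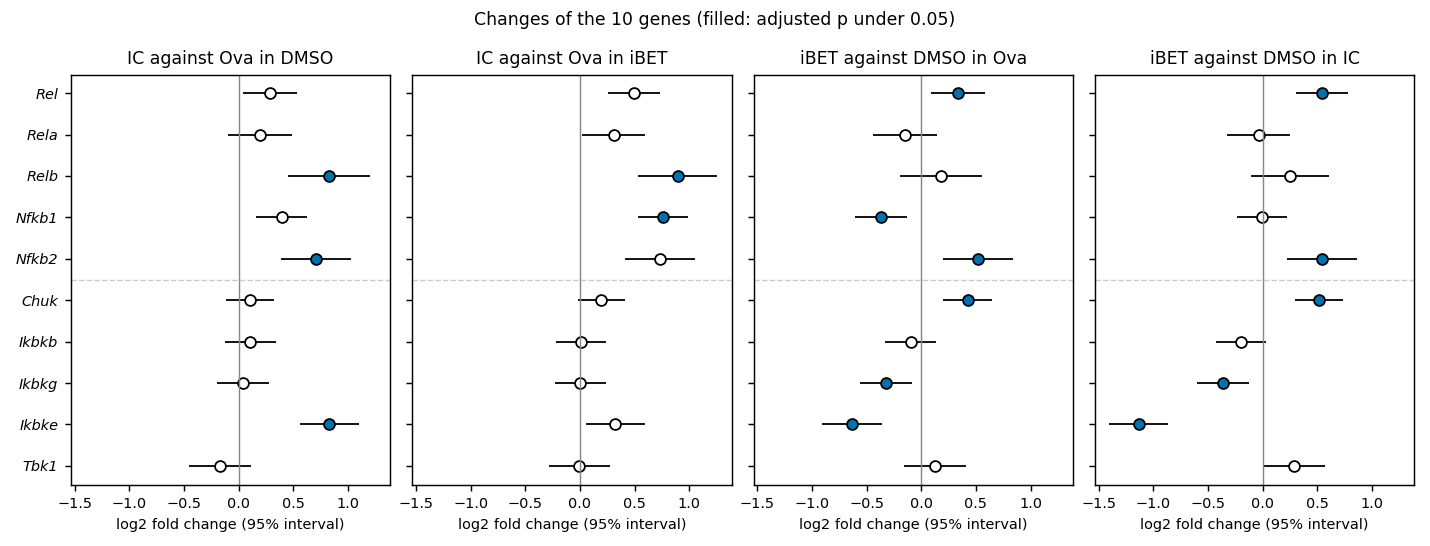
Log2 fold changes of the 10 genes (points) with 95% intervals (lines) in 4 comparisons, with subunits above and kinase genes below the dashed line. Filled points had an adjusted p under 0.05 over all genes, and Ikbke is to the right of 0 for IC in DMSO (0.83) and to the left for iBET in both stimulations (-0.63 and -1.14).

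The interaction (response to IC with iBET minus response without it) tested whether the response itself differed. In edgeR it called 0 of the 10 genes and 0 of all genes (0%), with 2 of the 10 and 292 of all genes at an unadjusted p under 0.05. DESeq2 also called 0 of the 10, and 4 of all genes. The 2 were Ikbke, whose response was smaller in iBET (-0.50, SE 0.18, unadjusted p = 0.0139), and Nfkb1, whose response was larger (0.36, SE 0.15, unadjusted p = 0.033). Both had an adjusted p of 1.00.

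The difference had the same sign in 3 of 3 mice for either gene, at -0.65, -0.46 and -0.53 for Ikbke and 0.35, 0.59 and 0.15 for Nfkb1 in mice A, B and C. Both were picked by unadjusted p on these libraries, so this agreement adds no evidence. Rel (0.44, 0.043 and 0.19) and Chuk (0.12, 0.081 and 0.10) also had the same sign in 3 of 3 mice. For Nfkb2 the interaction was 0.02, with a 95% interval from -0.43 to 0.47. For Relb it was 0.07, with a 95% interval from -0.45 to 0.59. An unequal response within those intervals was thus not excluded for these 2 subunits, and the direction of both interactions changed with the libraries included.

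**Figure D3:**
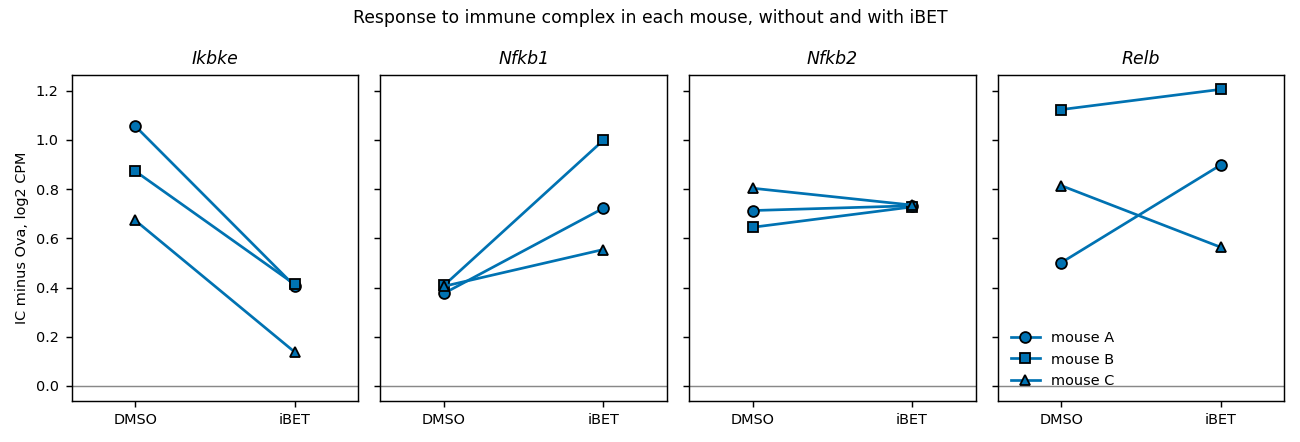
IC response of Ikbke, Nfkb1, Nfkb2 and Relb in each mouse, as the difference of log2 CPM between the IC and the Ova library of that mouse, without (DMSO) and with iBET. Lines join the values of 1 mouse, and all 3 lines go down for Ikbke and up for Nfkb1, whereas those of Nfkb2 stay between 0.64 and 0.80.

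iBET was set against DMSO in Ova to ask what the inhibitor does to these transcripts without the immune complex. It called 6 of the 10 genes: Rel, Nfkb2 and Chuk rose, and Nfkb1, Ikbkg and Ikbke fell. Over all genes 31.3% were called, 17.1% higher and 14.2% lower. In IC it called 5 of the 10, with Rel, Nfkb2 and Chuk again higher and Ikbkg and Ikbke again lower, against 34.8% of all genes (19% higher, 15.8% lower). With so large a share of all genes called, these counts of members say little by themselves. The median log2 fold change was 0.18 in Ova and 0.25 in IC for the subunits, and -0.10 and -0.20 for the kinase genes, against 0.02 and 0.00 for all genes.

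Nfkb2 was higher with iBET by 0.52 on the log2 scale in Ova (SE 0.15, FDR-adjusted p = 0.0179) and by 0.54 in IC (SE 0.15, FDR-adjusted p = 0.0121), without overlap and in 3 of 3 mice. The rise was unequal among mice, at 0.83, 0.27 and 0.54 in Ova and 0.85, 0.35 and 0.47 in IC for mice A, B and C. Mouse A had the lowest Nfkb2 level in both DMSO groups, and the same libraries had the highest Rn45s shares, 77.4% and 7.83%. Without the mouse A DMSO Ova library the value in Ova was 0.35 (adjusted p = 0.10), and without the mouse A DMSO IC library the value in IC was 0.37 (0.0558). The call in Ova was also lost without the mouse C iBET Ova library (0.0567). Omission of mouse B (0.0818 in Ova, 0.0755 in IC) or of mouse C (0.114, 0.0663) ended both calls.

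Rel (chromosome 11, 23736847 to 23770970, minus strand) rose more clearly in IC than in Ova. In IC it went from 32.4, 34.2 and 30.2 to 49.0, 49.2 and 43.0 CPM (log2 fold change 0.55, SE 0.11, FDR-adjusted p = 0.0021), with separate groups and rises of 0.59, 0.52 and 0.51 in mice A, B and C. This call held whichever library or mouse was omitted. In Ova it went from 30.8, 23.8 and 26.3 to 34.2, 33.3 and 32.8 CPM (0.34, SE 0.11, FDR-adjusted p = 0.0402, 3 of 3 mice), and the call held in 4 of the 12 fits without 1 library, with an adjusted p of up to 0.171 without the mouse B DMSO Ova library. It was lost on omission of mouse B (0.347) or mouse C (0.186) and in 7 of 9 other alternatives, with an adjusted p from 0.0528 (Rn45s removed) to 0.128 (compared groups alone), DESeq2 (0.0593) among them. The difference between the rises in IC and in Ova is the interaction, 0.21 (SE 0.16, unadjusted p = 0.207).

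Nfkb1 moved opposite to Nfkb2 in Ova, although both genes encode a precursor of the same type. It was 1.29-fold lower with iBET (log2 fold change -0.37, SE 0.11, FDR-adjusted p = 0.0212, lower in 3 of 3 mice), and the 3 iBET Ova values of 54.8 to 63.5 CPM lay under the 3 DMSO Ova values of 72.1 to 85.0 CPM. The call was lost without the mouse C DMSO Ova library (0.0969), the mouse B iBET Ova library (0.0963), mouse B (0.146) or mouse C (0.121). In IC the groups overlapped and the value was -0.01 (95% interval -0.24 to 0.23), so that the order of levels was iBET Ova lowest, DMSO Ova next, and DMSO IC and iBET IC together at the top, at 103 ± 8.86 and 102 ± 8.24 CPM.

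Relb and Rela were not called with iBET. The Relb values were 0.18 in Ova (SE 0.17, FDR-adjusted p = 0.47) and 0.25 in IC (SE 0.16, FDR-adjusted p = 0.265). Rela (chromosome 19, 5637483 to 5648130, plus strand), which encodes p65, had group means from 56.2 ± 2.91 CPM in iBET Ova to 71.5 ± 9.70 CPM in DMSO IC, and was called in none of the 6 comparisons. Its largest value was 0.31 for IC in iBET (SE 0.13, FDR-adjusted p = 0.612).

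Ikbke fell with iBET in both stimulations, from 28.8, 36.8 and 41.4 to 22.3, 23.4 and 24.7 CPM in Ova and from 60.0, 67.6 and 66.1 to 29.6, 31.2 and 27.2 CPM in IC. Every iBET value lay under every DMSO value of the same stimulation, and in IC the level was 2.20-fold lower. The log2 fold changes were -0.63 in Ova (SE 0.13, FDR-adjusted p = 0.00245) and -1.14 in IC (SE 0.12, FDR-adjusted p = 2.76e-05), each in 3 of 3 mice. Each of the 15 fits that left out 1 library or 1 mouse kept the call in IC, and that in Ova in the 12 without 1 library, but not without mouse B (0.0884) or mouse C (0.0521).

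Chuk, on chromosome 19 (44073335 to 44107480, minus strand), moved the other way. In Ova it went from 60.6, 57.2 and 52.9 to 82.6, 78.5 and 66.7 CPM (log2 fold change 0.42, SE 0.10, FDR-adjusted p = 0.00757). In IC it went from 58.4, 63.3 and 61.1 to 86.4, 91.9 and 82.7 CPM (0.51, SE 0.10, FDR-adjusted p = 0.00181). Groups were separate in both, each mouse rose, and both calls held in the 12 fits without 1 library but not without mouse B (0.142 and 0.0681).

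Ikbkg (chromosome X, 74393290 to 74453854, plus strand), the gene of the scaffold NEMO, measured 61.6, 73.5 and 74.9 CPM in DMSO Ova, 56.6, 56.9 and 55.1 CPM in iBET Ova, 65.2, 74.2 and 78.3 CPM in DMSO IC and 52.4, 62.5 and 54.3 CPM in iBET IC. It was lower with iBET by -0.33 in Ova (SE 0.11, FDR-adjusted p = 0.0382) and -0.36 in IC (SE 0.11, FDR-adjusted p = 0.0204), in 3 of 3 mice each, and the groups of each pair were separate by 5 CPM or less. Leaving out 1 library at a time, the calls held in 6 and 8 of 12 fits, and the adjusted p was highest without the mouse C DMSO Ova library in Ova (0.131) and without the mouse A iBET IC library in IC (0.0868). Neither held on omission of mouse B (0.264 and 0.111) or mouse C (0.279 and 0.225).

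Ikbkb (chromosome 8, 22659212 to 22706589, minus strand), the gene of IKK-beta, and Tbk1 (chromosome 10, 121546455 to 121586787, minus strand) were called in none of the 6 comparisons. Group means of Ikbkb lay between 51.4 ± 3.57 and 59.2 ± 3.94 CPM. Tbk1 in IC was 0.29 higher with iBET (SE 0.13, FDR-adjusted p = 0.099), with separate groups of 90.4 to 115 CPM in DMSO and 116 to 133 CPM in iBET. With mouse as a block that value had an adjusted p of 0.048, and without the mouse A DMSO IC library and no block it had 0.0422.

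The overlap of 4 of these genes with annotated genes on the other strand bears on the values, since the use of strand in the counting was not stated. The shared part is 1.85% of the exonic bases of Ikbke, 2.39% of those of Nfkb2 and 1.95% of those of Ikbkg (with G6pdx), and 0% for Ikbkb, whose antisense neighbour shares no exonic base. Reads from the other strand in these parts were not measured, so these values are uncertain by an unknown amount.

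iBET IC against DMSO Ova, the 2 corner groups, gave the sum of both exposures. It called 6 of the 10 genes, with Rel, Relb, Nfkb1, Nfkb2 and Chuk higher and Ikbkg lower, against 34.4% of all genes (18.6% higher, 15.8% lower). This comparison shares its libraries with those above, so its values are set beside theirs without a further test. Nfkb2 was 2.38-fold higher (log2 fold change 1.25, SE 0.15, FDR-adjusted p = 5.82e-05) and Relb 2.10-fold higher (1.07, SE 0.17, FDR-adjusted p = 0.000488). Rel was 1.78-fold higher (0.83, SE 0.11, FDR-adjusted p = 0.000154). These 3 calls, each in 3 of 3 mice, held whichever library or mouse was omitted.

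For Ikbke, in which IC and iBET had opposite values, the 2 corner groups overlapped, at 28.8 to 41.4 and 27.2 to 31.2 CPM (-0.31, SE 0.13, FDR-adjusted p = 0.0756). Without the mouse A DMSO Ova library it was called lower (adjusted p = 0.01), likewise without the mouse A DMSO IC library (0.0466) and without mouse A (0.015). With all libraries it was called by DESeq2 without (0.045) and with a block by mouse (0.0486) and by limma voom (0.00739). Chuk was higher by 0.62 (SE 0.10, FDR-adjusted p = 0.000588), a call lost without mouse B (0.0501). Nfkb1 was higher by 0.39 (SE 0.11, FDR-adjusted p = 0.0143), lost without the DMSO Ova library (0.0631), the iBET IC library (0.0592) or all 4 libraries (0.221) of mouse B. The call of Ikbkg (-0.32, SE 0.11, FDR-adjusted p = 0.037) held in 6 of 12 fits with 1 library omitted, and its adjusted p peaked without the mouse A iBET IC library (0.134). Omission of mouse B (0.17) or mouse C (0.29) also ended it.

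The makeup of the family in RPKM changed with these shifts. The 5 subunits together had 86.6 ± 9.15 RPKM in DMSO Ova, 97.1 ± 4.53 in iBET Ova, 125 ± 16.5 in DMSO IC and 154 ± 2.66 in iBET IC. The range of iBET IC (152 to 157 RPKM) lay above those of the other groups, while DMSO Ova and iBET Ova overlapped. The 5 kinase genes together stayed between 86.4 ± 4.36 and 93.3 ± 4.47 RPKM. The range of DMSO IC (91.7 to 95.9 RPKM) lay just above that of DMSO Ova (83.4 to 91.4 RPKM), and every other pair of groups overlapped. These sums, and the shares and ratios below, depend in size on the transcripts taken for exon length. They were not tested, as they are built from the values already given.

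Nfkb2 made up 38.2 ± 3.66% of the subunit total in DMSO Ova, 43.7 ± 2.11% in DMSO IC, 49.4 ± 1.13% in iBET Ova and 51.9 ± 3.96% in iBET IC. Its lowest share in either iBET group (48.1%) was above its highest in either DMSO group (45.4%). The ratio of Nfkb1 to Nfkb2 was 0.582 ± 0.117 in DMSO Ova and 0.464 ± 0.0809 in DMSO IC, and 0.305 ± 0.0145 and 0.313 ± 0.0437 in the corresponding iBET groups. Both genes encode a precursor from which a DNA-binding subunit is cut, p50 or p52, and protein was not measured.

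Among the kinase genes, Ikbke made up 21.3 ± 1.80% of the total in DMSO IC, above 12.8 ± 2.84% in DMSO Ova, 9.68 ± 0.416% in iBET IC and 8.19 ± 0.745% in iBET Ova. Relative to its sister kinase Tbk1, Ikbke stood at 0.613 ± 0.109 in DMSO IC and 0.225 ± 0.0230 in iBET IC. The ratio of Chuk to Ikbkb, the catalytic subunits of the IKK complex, was 1.33 ± 0.0254 in DMSO Ova and 1.34 ± 0.143 in DMSO IC, and 1.92 ± 0.240 and 2.19 ± 0.144 with iBET. Each of the 6 iBET libraries (1.73 to 2.32) exceeded each of the 6 DMSO libraries (1.21 to 1.49).

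**Figure D4:**
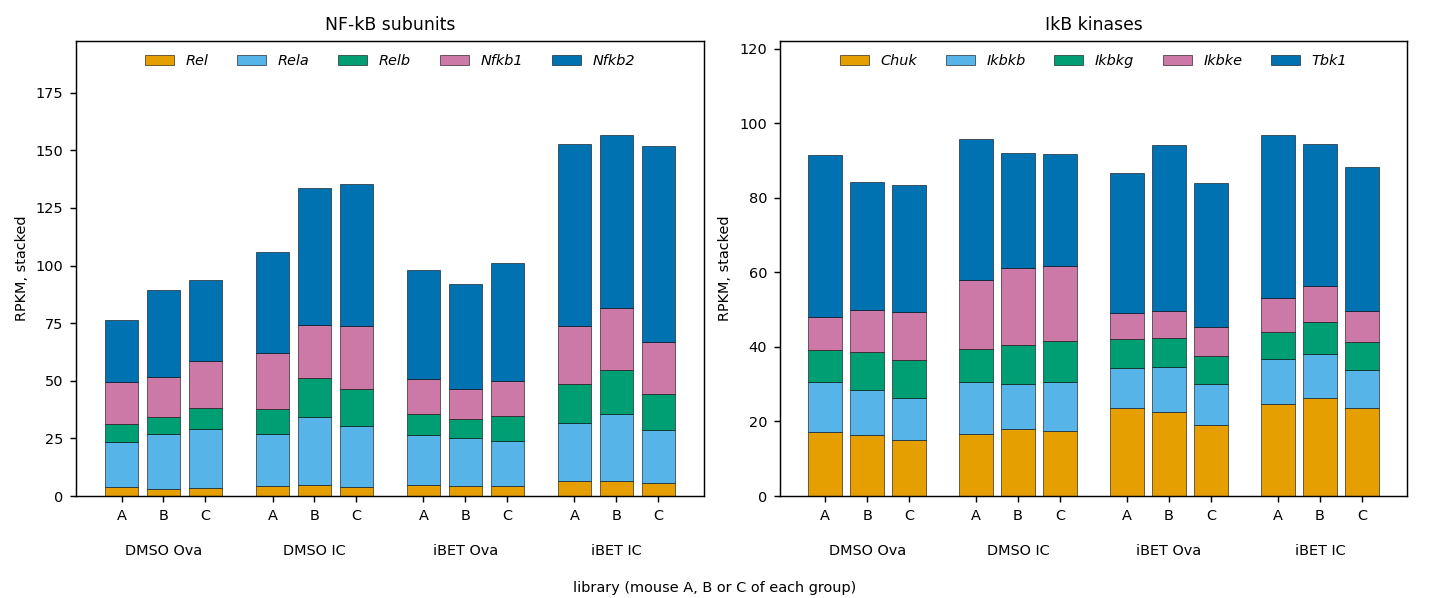
RPKM of the 5 subunits (left) and the 5 kinase genes (right), stacked for each of the 12 libraries, with mice A, B and C in each group. The subunit totals reach 152 to 157 RPKM in iBET IC against 76.3 to 93.9 RPKM in DMSO Ova, and the kinase totals keep to 83.4 to 97.0 RPKM in all groups.

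The 4 lists that follow are read against the shares of all genes called that are given above. These were 1.22% and 0.349% for IC (140 and 40 genes), 31.3% and 34.8% for iBET, and 34.4% for iBET IC against DMSO Ova. They hold for edgeR with all libraries and no block. For IC in DMSO and in iBET, DESeq2 called 268 and 113 of all genes, and 427 and 177 with mouse as a block. The block in edgeR called 315 and 85, and limma voom 266 and 243. Without mouse B, 0 of all genes were called for IC in either arm. The first list held 10 genes of IkB proteins and other regulators of the route, which share the pathway's feedback. IC raised 4 of them in DMSO (median of the list 0.77). The largest log2 fold changes were those of Tnfaip3, the ubiquitin-editing protein A20, at 1.34 (SE 0.13, FDR-adjusted p = 0.000676), and Nfkbia, the gene of IkB-alpha, at 1.13. In iBET IC raised 3 (median 0.62), led by Tnfaip3 (1.48) and Nfkbia (0.94), whereas DESeq2 called 6 in either arm. The count in iBET was 1 without the mouse B library of iBET Ova or of iBET IC, where 12 and 16 of all genes were called. Without mouse B it was 0 in both arms, as over all genes. iBET raised 3 and lowered 2 in Ova and raised 3 and lowered 4 in IC, with medians of -0.28 and -0.23. The largest changes were those of Nfkbiz, the gene of the nuclear protein IkB-zeta, at 1.29 and 1.54, and Bcl3, another nuclear IkB protein, at -1.40 and -1.12.

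Of 18 adaptors and kinases upstream of the IKK complex, IC raised 1 in DMSO, Birc3 (0.72, SE 0.11, FDR-adjusted p = 0.0083), the ubiquitin ligase cIAP2. With mouse as a block 2 were called. Without the mouse B DMSO Ova library 0 were, and 45 of all genes. In iBET, edgeR called 0 (4 at an unadjusted p under 0.05; DESeq2 called 1, limma voom 3). With the inhibitor 4 were higher and 2 lower in Ova, and 3 were higher and 3 lower in IC, a share near that of all genes. Map3k14, the kinase NIK that activates IKK-alpha in the non-canonical route, rose by 0.81 in Ova (SE 0.14, FDR-adjusted p = 0.00114) and 0.74 in IC (SE 0.14, FDR-adjusted p = 0.00163). Birc3, which takes part in the turnover of NIK, had values of -0.63 and -0.92 and was called lower in both. Median values of the list lay between 0.07 and 0.18 in these 4 comparisons.

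Of 9 partners and substrates of TBK1 and IKK-epsilon, none was called for IC in edgeR in either arm (at an unadjusted p under 0.05 there was 1 in DMSO and 0 in iBET; DESeq2 called 0 in both, and 1 in DMSO with mouse as a block). With iBET the same 2 were higher and the same 2 lower in both stimulations. Tmem173, which encodes the DNA-sensing adaptor STING, changed by -1.51 in Ova (SE 0.19, FDR-adjusted p = 9.12e-05) and -1.33 in IC, and Tbkbp1, a TBK1-binding scaffold, by -1.07 and -1.32. The scaffold genes Tank (0.50 and 0.36) and Azi2 (0.34 and 0.26) were the others, and in IC neither was called by DESeq2, nor in Ova without the mouse B DMSO Ova library.

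Of 22 NF-kB target genes of macrophages 18 were tested. IC raised 6 in DMSO, among them Cxcl2 (1.94) and Traf1 (1.37), and 8 in iBET, among them Il1b (3.01) and Cxcl1 (2.98), with list medians of 0.96 and 1.09. With mouse as a block the counts were 13 and 14. They fell to 0 in both arms without mouse B, where 0 of all genes were called. Without mouse C they fell to 2 and 1, with 10 and 9 of all genes called. In iBET the count was 3 without the mouse B iBET Ova library and 3 without the mouse B iBET IC library. Over all genes those fits called 12 and 16 in iBET. iBET raised 3 and lowered 4 in Ova (11 called with the block), and raised 5 and lowered 4 in IC, with the largest changes for Traf1 (-1.94 and -2.17), Cd40 in Ova (0.95) and Cxcl10 in IC (-1.58). With the block 4387 of all genes were called in Ova. Without mouse B the calls of the list numbered 3 in Ova and 2 in IC, against 1310 and 1769 of all genes. In iBET IC against DMSO Ova, 12 of the 18 were higher and 2 lower, with a median of 1.45, and Cxcl1 (2.28) and Cxcl2 (2.17) had the largest values.

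In the same comparison of corner groups, 5 of the 10 genes of the first list were higher (Nfkbiz 1.91 and Nfkbie 1.63 in the lead). Of the 18 upstream genes 6 were higher and 1 lower (Malt1 0.69 and Bcl10 0.67). Of the 9 TBK1 partners 2 were higher and 2 lower (Tmem173 -1.41 and Tbkbp1 -1.27). With 34.4% of all genes called, these counts say little by themselves. The interaction called none of the genes of these 4 lists in edgeR, DESeq2 or limma, with 3 target genes and no gene of the other lists at an unadjusted p under 0.05.

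As a description, each of the 7 genes called in 3 or more comparisons was set against 9418 other genes by the Pearson correlation of log2 CPM over the 12 libraries, which share mice and group means. Nearest to Nfkb2 were Tmem185b and Tnf (both 0.98), to Relb Icam1 and Rnf19b (both 0.96), to Nfkb1 Tlr2 (0.95) and Tnfaip3 (0.93), and to Rel P2ry2 (0.94) and Eif5 (0.93). For the kinase genes, the nearest were Slmo2 (0.99) and Grwd1 (0.98) for Ikbke, Nipa2 and Il4ra (both 0.98) for Chuk, and Pdlim2 and Rad51d (both 0.96) for Ikbkg.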

How the data were processed

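Total RNA from 12 BMDM libraries was sequenced after preparation with a SMARTer Pico input kit. Per the labels, the reads were processed with CASAVA, FastQC, Trim Galore, HISAT2 (mm10) and featureCounts. The authors deposited counts per gene symbol, and a normalized signal that equalled the counts divided by DESeq2 size factors (largest relative gap 4.89e-15). The annotation, strand use and treatment of multiply aligned reads are not given in the sources used here.

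Counts were fitted in edgeR 4.0.16 (R 4.3.3), with filterByExpr (minimum count 10), TMM factors, and 1 robust quasi-likelihood model with a term per group. The 6 contrasts were adjusted by Benjamini-Hochberg over 11468 genes, and calls had an adjusted p under 0.05, two-sided. Changes per mouse used a prior count of 2. Positions are from GENCODE vM21, and RPKM used exons of transcripts matched to RefSeq. The scripts were tested on data simulated without a mouse effect, which checks the code and not the results given here. The 10 genes and the other lists were chosen with earlier results of these data known. All 10 are named, and of each other list the 2 called genes with the largest change per contrast. Similar genes had a mean count of at least 50.

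Pairing by mouse comes from the labels. Deviations from group means correlated at a median of 0.35 over 18 same-mouse pairs (14 over 0.1) and -0.19 over 36 other pairs. Alternatives were DESeq2 1.42.0, its size factors, no filter, mouse as a block in edgeR and DESeq2, the compared groups alone, removal of Rn45s, limma 3.58.1 voom with quality weights, limma on the authors' normalized signal (pseudocount 1), and omission of each library and mouse. The removal of batch effects with sva, named in the study's methods, was not used here.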

Additional observations from a re-analysis of the deposited data

How the results depend on the processing

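Across the 10 genes and 6 comparisons, 22 of 60 values were called. All 22 had the same direction in 3 of 3 mice and under every alternative run. They were called on these same mice and libraries, so this agreement is not independent evidence. The block by mouse in edgeR kept the 22 calls and added those of Nfkb2 (IC in iBET) and Tbk1 (iBET in IC). It changed no other call. The block in DESeq2 kept 21, without Rel (iBET in Ova), and added those of Rel (IC in iBET), Nfkb1 (IC in DMSO), Nfkb2 (IC in iBET) and Ikbke (corner groups). DESeq2 kept 21, no filter 19, the compared groups alone 17 and the normalized signal 20. Omission of mouse A kept 22, of mouse B 5 and of mouse C 9. Calls over all genes fell as well, from 140 to 0 for IC in DMSO and from 3593 to 1310 for iBET in Ova without mouse B.

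For IC in DMSO the count of 3 genes went to 0 with the compared groups alone, where calls over all genes went from 140 to 5. For IC in iBET the count of 2 went to 4 with DESeq2, with its block by mouse, with the compared groups alone and with limma voom, and to 1 with the normalized signal. Over all genes these fits called 113, 177, 99, 243 and 36 in that order, against 40 in the main fit. Over fits without 1 library or 1 mouse the counts ran from 0 to 3 for IC in DMSO and in iBET, 0 to 6 for iBET in Ova, 2 to 6 for iBET in IC, and 3 to 7 for the corner groups. The interaction stayed at 0. Over all genes, calls in the fits without 1 library or mouse ran from 0 to 159 for IC in DMSO and 0 to 305 in iBET. They ran from 1310 to 3899 for iBET in Ova, 1769 to 4469 for iBET in IC and 1515 to 4360 for the corner groups. The cause was not tested.

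Direction changed for uncalled values alone. Without a filter, Nfkb1 (iBET in IC) was 0.0019, and 0.0011 with the block. With limma voom, Ikbkb and Ikbkg (IC in iBET) were -0.026 and -0.0082. Tbk1 (IC in iBET) was 0.0036 with DESeq2, 0.0022 with its size factors, 0.0080 without a filter, 0.0090 with the compared groups alone, 0.0085 without Rn45s and 0.0027 with the normalized signal. Over fits without 1 library or mouse, the IC values in iBET ran from -0.093 to 0.11 for Tbk1, -0.050 to 0.081 for Ikbkb and -0.075 to 0.087 for Ikbkg. Ikbkg for IC in DMSO ran from -0.054 to 0.11, Rela for iBET in IC from -0.17 to 0.063, Nfkb1 for iBET in IC from -0.11 to 0.13, and Tbk1 for iBET in Ova from -0.0091 to 0.26. Interactions ran from -0.10 to 0.21 for Relb, -0.11 to 0.18 for Nfkb2, -0.17 to 0.030 for Ikbkb and -0.13 to 0.067 for Ikbkg. With 3 libraries per group and no block by mouse, the smallest called change in size was -0.32 (Ikbkg, iBET IC against DMSO Ova). Values of up to 0.73 (Nfkb2, IC in iBET) were not called in that fit. With mouse as a block in edgeR, that Nfkb2 value was called (adjusted p = 0.00946).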
